A study of Mus musculus with 8 samples.

Results

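Astrocytes clear glutamate and GABA from the synaptic cleft, buffer potassium and water, and share small molecules with one another through gap junctions. The transport and coupling genes examined here are 9 genes that carry out these tasks or, in the case of Aldoc, a step of glycolysis. All were chosen by name, with earlier results of these data known. They are the glutamate transporters Slc1a2 (GLT-1) and Slc1a3 (GLAST), the GABA transporter Slc6a11 (GAT3), Glul (glutamine synthetase, which turns the imported glutamate into glutamine), the water channel Aqp4, the potassium channel Kcnj10 (Kir4.1), the gap junction proteins Gja1 (connexin 43) and Gjb6 (connexin 30), and the glycolytic enzyme Aldoc (aldolase C). All 9 had a row among the 32502 genes of the deposited tables and were seen in at least 30 kept cells. The question was how much RNA of each gene astrocytes held in naive and in tumour-bearing brains, and which of the UMIs in other cell types were more than stray astrocyte RNA.

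The study sequenced 8 Drop-seq libraries of mouse brain (strain C57BL/6 in the labels, C57BL/6N in the methods), 1 for each of 2 genotypes, Irg1/Acod1 +/+ (WT) and Irg1/Acod1 -/- (KO), at 4 conditions. Drop-seq pairs each cell with a barcoded bead in a droplet and counts the 3′ ends of mRNA molecules by unique molecular identifiers (UMIs), so levels of different genes can be compared without a correction for length. Naive mice received no treatment, and the titles of the naive libraries name 2 mice each. The other libraries held 1 mouse each, implanted with GL261, a mouse glioma line grown in the same strain, and taken at a tumour volume of 5 to 10 mm3 (early), 20 to 25 mm3 (intermediate) or 30 to 35 mm3 (late). The labels place the implant in the right striatum and the methods in the frontal cortex. Tumour tissue was cut out by hand and naive tissue was not cut to a tumour, so tumour and brain region cannot be told apart. By the methods, the genotypes also differed in sex at the early stage (WT female, KO male) and the intermediate stage (WT male, KO female), and myelin was depleted with beads before the droplets were made. Ages are not given in the labels.

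The targeted gene, Acod1, gave 0 UMIs in the WT naive and KO naive libraries. It gave 161 UMIs in the WT early, 21 in the WT intermediate and 10 in the WT late library, beside 33, 26 and 41 in the KO early, KO intermediate and KO late libraries. Drop-seq counts 3′ ends, whereas the KO allele is disrupted by a cassette inside the gene, so these counts check nothing about genotype, and the origin of the UMIs in KO libraries was not tested. No Acod1 UMI lay in an astrocyte of any library.

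Of 5698 kept cells, 290 were astrocytes. They formed 1 cluster, found with the 9 genes left out of the clustering, and all 10 of 10 fixed astrocyte markers were detected in it in every library, at a sum of 20310 to 22760 CPM (on the counts-per-million scale, each UMI count over all UMIs of the class in that library). The naive libraries held 217 astrocytes (110 WT, 107 KO), and the tumour-bearing libraries 73, with 23 in WT early, 14 in KO early, 3 in WT intermediate, 9 in KO intermediate, 13 in WT late and 11 in KO late. Astrocytes made up 24.2% and 23.6% of kept cells in the naive libraries and 0.30% to 3.19% in the tumour-bearing ones. The WT intermediate library fell under the minimum of 5 astrocytes, so its values are shown but entered no comparison of astrocytes. Astrocytes held a median of 2055 to 2906 UMIs per cell by library. Pairs of libraries shared 3 to 10 of 3000 barcodes.

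All 9 genes were highest in astrocytes among the 14 cell classes, by the mean over libraries with at least 5 cells of the class. Slc1a2 led with a mean of 8977 CPM ± 1745 (SD, n = 7 libraries), followed by Aldoc at 7389 ± 472, Slc1a3 at 5270 ± 797, Glul at 3585 ± 743, Gja1 at 3556 ± 643, Aqp4 at 1576 ± 231, Kcnj10 at 738 ± 257, Gjb6 at 733 ± 141 and Slc6a11 at 595 ± 160. Glul and Gja1 did not differ beyond their spread over the 7 libraries, and neither did Kcnj10, Gjb6 and Slc6a11. By group, Gja1 was above Glul in naive astrocytes (means of 4342 and 2812 CPM) and under it in tumour-bearing ones (3241 and 3895 CPM). In KO late Aldoc was above Slc1a2 (7878 and 6468 CPM), and in KO early they were close (7492 and 7551 CPM). For 7 of the 9 genes every astrocyte library lay above every library of the class next in order, although 1 neuron-like sum further down the order of Aqp4, described further on, exceeded them. The exceptions were Kcnj10, whose astrocyte range of 501 to 1263 CPM met that of oligodendrocytes (386 to 626 CPM), and Gjb6, whose lowest astrocyte library (551 CPM) lay under the highest library of mural cells and fibroblasts (570 CPM). Clusters were set apart by expression, so these differences between classes carry no test.

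**Figure D1:**
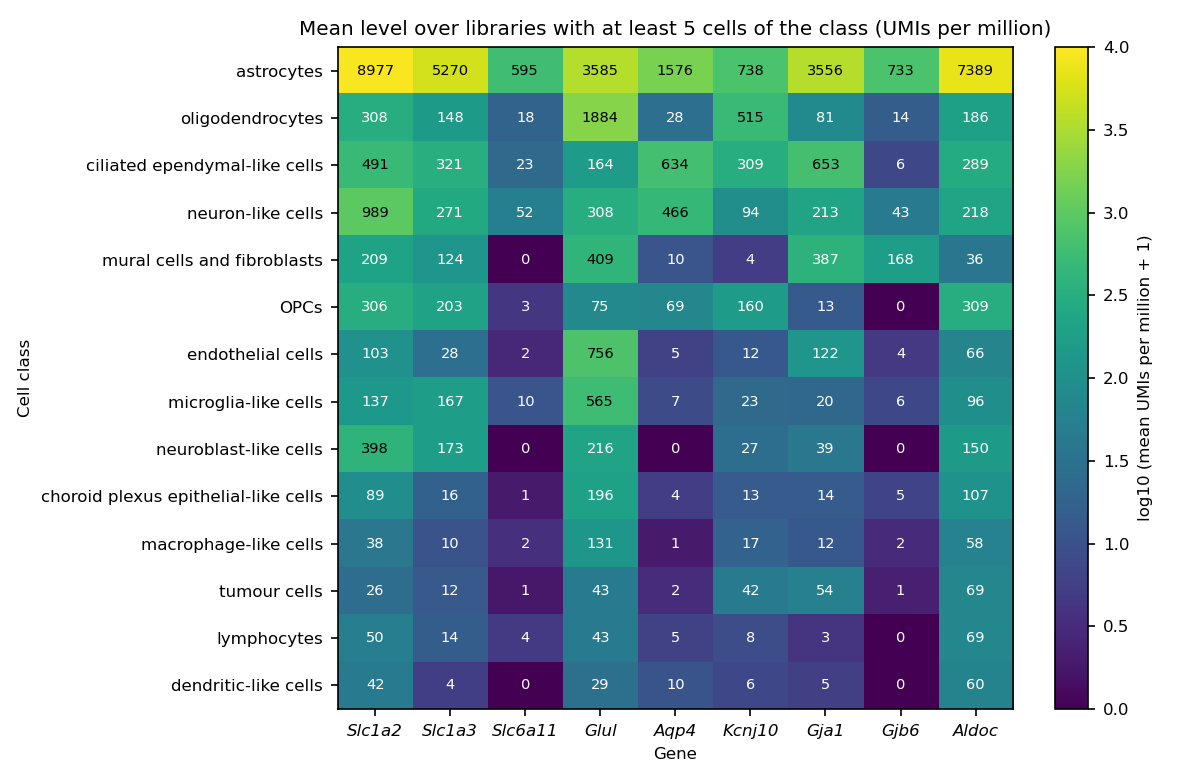
Mean level of the 9 genes (columns, CPM, printed in each square and coloured on a log10 scale) in 14 cell classes (rows), over libraries with at least 5 cells of the class. Every gene is highest in astrocytes, and the class next in order is oligodendrocytes for Glul (1884) and Kcnj10 (515), ciliated ependymal-like cells for Aqp4 (634.5) and Gja1 (653) and neuron-like cells for Slc1a2 (989). The neuron-like mean of Slc1a2 includes WT late at 2127 CPM, where 118 of 125 UMIs lay in 1 cell with 1 neuronal marker UMI.

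To show what lies at RefSeq start sites of genes with different patterns, stretches of 3 members are printed here, from 250 bases before to 50 bases after the RefSeq start (GRCm38.p6). Outside astrocytes, Slc1a2 was in most classes near or under the level predicted from stray astrocyte RNA, whereas Glul and Kcnj10 in oligodendrocytes were above it in every library compared. Capitals mark GC boxes, the letters GGGCGG or, on the other strand, CCGCCC, a motif bound by Sp1 family factors and held by 35.7% of all 32851 promoters of the table. The stretches are chr2:102706188-102706487 on the plus strand for Slc1a2, chr1:153899679-153899978 on the plus strand for Glul and chr1:172340960-172341259 on the plus strand for Kcnj10.
Slc1a2: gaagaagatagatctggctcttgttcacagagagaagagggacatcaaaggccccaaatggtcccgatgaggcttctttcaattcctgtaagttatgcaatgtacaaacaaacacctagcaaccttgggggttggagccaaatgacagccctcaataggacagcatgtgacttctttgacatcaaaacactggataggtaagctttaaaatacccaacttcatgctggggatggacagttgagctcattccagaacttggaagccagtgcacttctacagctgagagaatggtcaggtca
Glul: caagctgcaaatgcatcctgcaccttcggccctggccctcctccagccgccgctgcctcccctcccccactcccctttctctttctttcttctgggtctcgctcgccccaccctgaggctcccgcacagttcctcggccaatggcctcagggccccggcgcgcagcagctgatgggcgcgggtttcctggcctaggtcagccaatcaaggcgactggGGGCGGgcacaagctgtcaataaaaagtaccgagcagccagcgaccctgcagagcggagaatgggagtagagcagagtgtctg
Kcnj10: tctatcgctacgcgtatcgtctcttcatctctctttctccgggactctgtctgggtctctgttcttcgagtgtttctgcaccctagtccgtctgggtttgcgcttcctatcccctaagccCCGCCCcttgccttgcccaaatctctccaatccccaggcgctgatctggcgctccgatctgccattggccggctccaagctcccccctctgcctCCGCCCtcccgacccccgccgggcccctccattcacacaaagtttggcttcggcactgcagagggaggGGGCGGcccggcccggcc
The RefSeq start of Slc1a2 in this table lies inside the gene span of GENCODE, which begins at 102658659, so its stretch is not that of the outermost start, and its counts are not to be set against those of Glul and Kcnj10, whose stretches cover the start of the gene span. The Slc1a2 stretch held 0 GC boxes and 1 CpG, the Glul stretch 1 and 17, and the Kcnj10 stretch 3 and 21. The promoter of Slc6a11, which averaged at most 51.8 CPM in any class but astrocytes, held 4 GC boxes and 32 CpGs, and that of Gja1 0 and 8. A TATA box, TATAAA or TTTATA, was in the Slc1a3 promoter alone among the 8 members with a promoter in the table that was read, beside 13.6% of all promoters. Matches are letters in a window and say nothing of binding.

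Slc1a2 takes up most of the glutamate released in the forebrain. It is encoded on chromosome 2 of GRCm38 from 102658659 to 102790784. Its level in astrocytes was 10400 CPM in WT naive and 8988 CPM in KO naive. The tumour-bearing libraries held 11780 CPM (WT early), 7551 (KO early), 8897 (KO intermediate), 8757 (WT late) and 6468 (KO late), with 10620 CPM in the 3 astrocytes of WT intermediate. The tumour-bearing values lay on both sides of the naive ones.

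Slc1a3, the other astrocyte glutamate transporter and the main one of Bergmann glia and radial glia, is encoded on chromosome 15 from 8634124 to 8710764. It reached 4554 CPM in WT naive and 4558 CPM in KO naive. In the tumour-bearing libraries it reached 6160 CPM (WT early), 4631 (KO early), 6528 (KO intermediate), 5274 (WT late) and 5183 (KO late). All 5 lay above both naive libraries, KO early by a margin inside its counting interval (exact Poisson 95% interval of 3935 to 5414 CPM).

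Glul is encoded on chromosome 1 from 153899944 to 153909723. Its astrocyte level was 2825 CPM in WT naive and 2799 CPM in KO naive, against 3490 CPM (WT early), 4336 (KO early), 4790 (KO intermediate), 3581 (WT late) and 3276 (KO late). All 5 tumour-bearing libraries lay above both naive libraries. Slc6a11, on chromosome 6 from 114131241 to 114249952, had the lowest mean over the 7 libraries, with 548 and 672 CPM in the naive libraries and 423 (WT late) to 912 CPM (KO late) in the tumour-bearing ones, which overlapped.

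Aqp4, the water channel of the astrocyte endfeet around vessels, was at 1678 CPM in WT naive and 1413 CPM in KO naive. It was at 1667 CPM in WT early, 1534 in KO early, 1263 in KO intermediate, 1986 in WT late and 1493 in KO late, on both sides of the naive values. Kcnj10, the inward rectifier that carries potassium into astrocytes, is encoded on chromosome 1 from 172341210 to 172374085. Its levels were 623 CPM (WT naive) and 550 CPM (KO naive), then 650 (WT early), 501 (KO early), 1263 (KO intermediate), 749 (WT late) and 829 CPM (KO late). KO intermediate was high and the other 4 lay near the naive range, and the groups overlapped.

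Gja1, which forms most astrocyte gap junctions, is encoded on chromosome 10 from 56377330 to 56402513. It was the 1 member lower in every tumour-bearing library. Its astrocyte level was 4848 CPM in WT naive and 3835 CPM in KO naive, against 3532 (WT early), 2920 (KO early), 3422 (KO intermediate), 3223 (WT late) and 3110 CPM (KO late). The 3 astrocytes of WT intermediate held 2755 CPM. The groups did not overlap, but the 2 naive libraries lay farther from each other than KO naive lay from WT early.

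Gjb6, the other astrocyte connexin, lies on chromosome 14 from 57123303 to 57133611. It was at 724 CPM (WT naive) and 639 CPM (KO naive), with 551 (WT early), 796 (KO early), 1000 (KO intermediate), 716 (WT late) and 705 CPM (KO late), and the groups overlapped. Aldoc, the brain form of aldolase, lies on chromosome 11 from 78322968 to 78327781. It varied least for its level, with 6908 CPM (WT naive) and 6766 CPM (KO naive), then 7234 (WT early), 7492 (KO early), 8054 (KO intermediate), 7390 (WT late) and 7878 CPM (KO late), all 5 above the naive libraries.

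**Figure D2:**
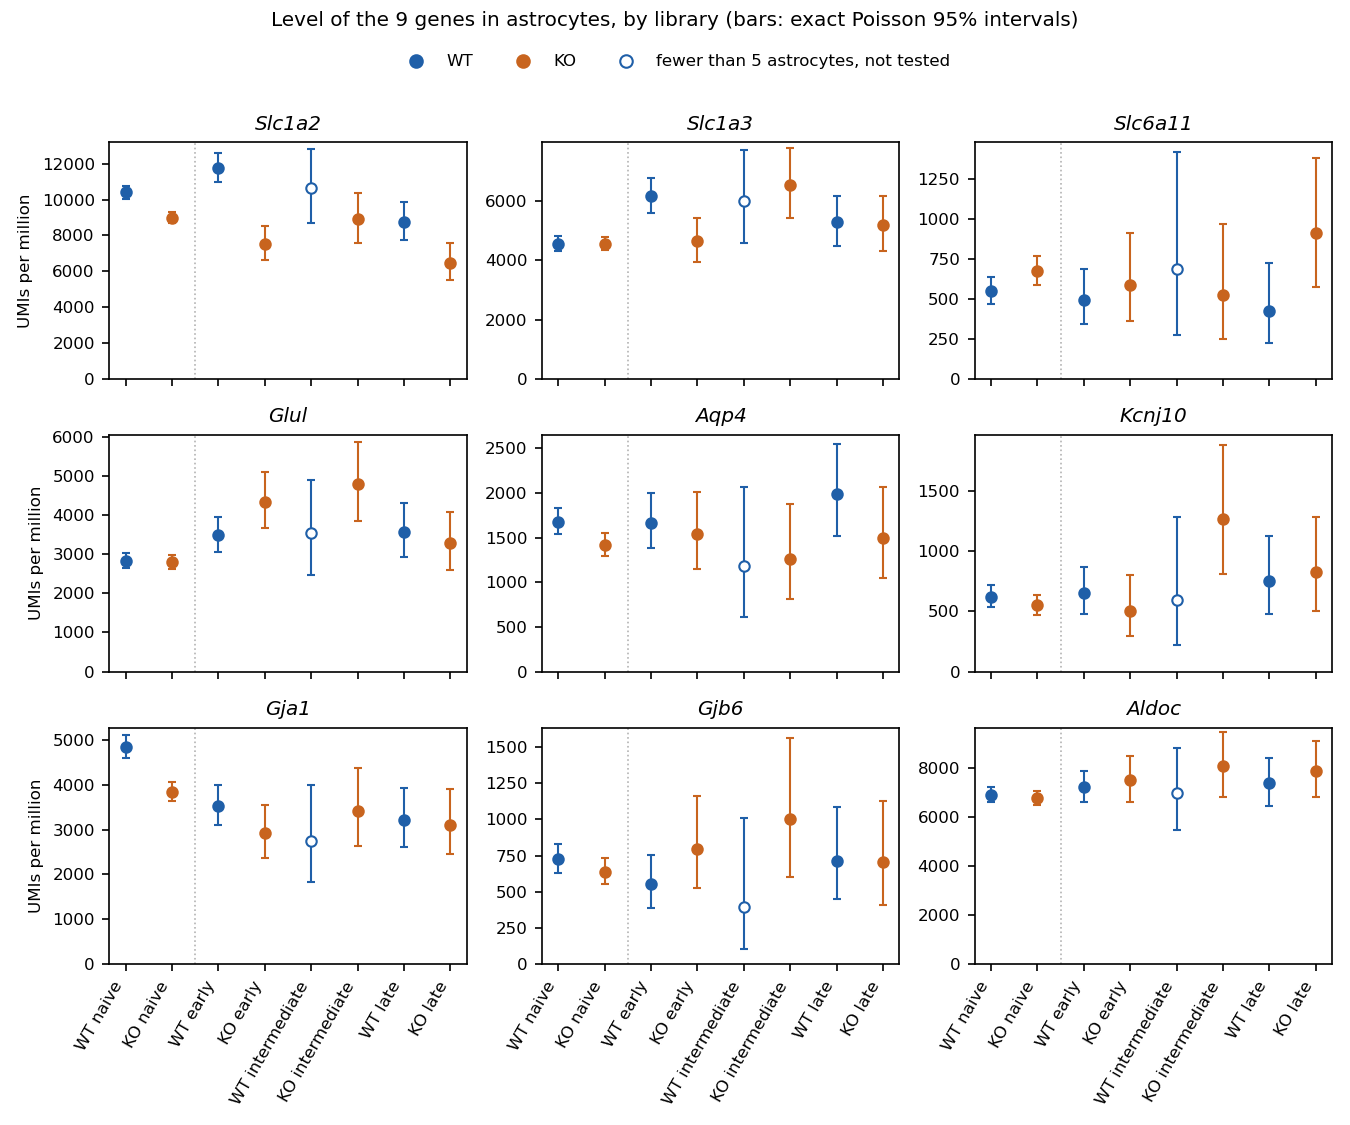
Level of each of the 9 genes in astrocytes (y axis, CPM, from 0) in the 8 libraries (x axis), blue for WT and orange for KO, with exact Poisson 95% intervals and an open point for the library with 3 astrocytes. Gja1 is lower and Slc1a3, Glul and Aldoc higher in all 5 tested tumour-bearing libraries than in both naive libraries, and the other genes overlap.

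The comparison of tumour-bearing with naive astrocytes thus asked whether these shifts exceeded the spread between libraries. In edgeR's quasi-likelihood test over 614 genes with genotype as a covariate, 0 of the 9 members were called at an adjusted p under 0.05, beside 0.489% of all genes tested called higher and 0.651% called lower. All 9 passed the filter on low counts. At an unadjusted p under 0.05 in edgeR there were 48 of the 614 genes, 1 of them a member. This was Gja1, with a log2 fold change of -0.48 ± 0.22 (SE) and an adjusted p of 0.589 (edgeR). Its unadjusted p in edgeR was 0.081 with library size scaling, 0.112 with at least 500 genes a cell and 0.056 to 0.314 without KO early, WT late, WT early, WT naive or KO naive. DESeq2 also called 0 members. Glul had a log2 fold change of 0.36 ± 0.24 (adjusted p = 0.83, edgeR), Kcnj10 0.30 ± 0.32, Slc1a3 0.20 ± 0.23, Aldoc 0.06 ± 0.22, Gjb6 -0.00 ± 0.27, Aqp4 -0.02 ± 0.23, Slc6a11 -0.19 ± 0.28 and Slc1a2 -0.22 ± 0.24. Under scaling by library size the estimates of Aqp4 and Gjb6 were 0.07 and 0.09, where the median of all genes was 0.105. The median over the members was -0.00 beside 0.02 over all genes tested.

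By the cruder measure of libraries that do not overlap, 3 of the 9 members were higher in all 5 tumour-bearing libraries and 1 was lower, beside 7.82% and 3.91% of all 614 genes. In the test run first on simulated counts of the same 614 genes, 97.5% of 200 genes changed 4-fold were called, and changes as small as those seen here were not simulated. The p-values measure the spread between these libraries, which hold different mice and stages. A member that misses the threshold has not been shown to be the same in both groups.

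Other genes of the same tasks are given beside the members. Of 12 genes of amino acid and GABA handling 6 were tested and 0 were called, of 12 genes of potassium, water and ion handling 8 were tested and 0 were called, and of 12 genes of glycolysis and lactate export 5 were tested and 0 were called, which at 0.489% and 0.651% of all genes called higher and lower sets no list apart. Their median log2 fold changes were -0.06, -0.03 and 0.04, beside 0.02 over all genes. None of the 8 further gap junction and channel genes passed the filter on low counts. Ldhb, a lactate dehydrogenase subunit, averaged 1004 CPM in naive and 1133 CPM in tumour-bearing libraries.

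Genes that mark astrocytes of different brain regions are given beside the members, since the tissue differed between the groups. Agt (angiotensinogen, made by astrocytes outside the telencephalon) was at 579 CPM in WT naive and 771 CPM in KO naive, against 127 (WT early), 29.5 (KO early), 52.6 (KO intermediate), 32.6 (WT late) and 124 CPM (KO late). Its log2 fold change was -3.09 ± 0.41 with an adjusted p of 0.000708 (edgeR), and the groups did not overlap. The telencephalic gene Mfge8 reached 1621 and 1747 CPM in the naive libraries and 1455 to 2507 CPM in the 5 tested tumour-bearing ones, and was not called. Of the markers of Bergmann glia, Hopx and Vim were tested and not called, with both estimates above 0 (median log2 fold change 1.80, edgeR). Vim was at 122 CPM (WT naive) and 108 CPM (KO naive), against 170 (WT early), 973 (KO early), 316 (KO intermediate), 2962 (WT late) and 498 CPM (KO late). Hopx was at 176 and 117 CPM in the naive libraries and at 124 (KO late) to 413 CPM (KO early) in the same 5. Gdf10 was at 64.3 and 44.8 CPM in the naive libraries and at 0 to 32.6 CPM in those 5, leaving out WT intermediate with its 3 astrocytes. These tumour-bearing values of Gdf10 rest on 2 or fewer UMIs each, with overlapping counting intervals. The part of region in the levels of the members was not tested.

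RNA of other cells was present in the astrocyte sums and differed between libraries. The 8 tumour cell markers summed to 595 and 586 CPM in the naive astrocytes and to 791 (WT early), 1770 (KO early), 895 (KO intermediate), 3841 (WT late) and 1493 CPM (KO late) in tumour-bearing ones, compared with 5013 to 9980 CPM in tumour cells themselves. In the naive libraries and in WT early and KO late the largest part was Sox2, which astrocytes express, and in KO early, KO intermediate and WT late it was Vim, at 2962 CPM in WT late. The 6 choroid plexus markers summed to 714 and 3767 CPM in the naive libraries, mostly Ttr, and to 105 to 581 CPM in the tumour-bearing ones. The 7 microglia markers summed to 274 and 1150 CPM in naive and 65.1 to 316 CPM in tumour-bearing astrocytes. The 7 oligodendrocyte markers summed to 700 CPM (WT naive) and 1240 CPM (KO naive). In the 5 tested tumour-bearing libraries they summed to 1045 (WT early), 383 (KO early), 579 (KO intermediate), 651 (WT late) and 2280 CPM (KO late). The part of these RNAs in the levels of the members was not tested.

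Ratios between members within a library are free of the scaling between libraries. In naive astrocytes there were 2.28 (WT) and 1.97 (KO) Slc1a2 UMIs for each Slc1a3 UMI. In the tumour-bearing libraries this ratio was 1.91 (WT early), 1.63 (KO early), 1.36 (KO intermediate), 1.66 (WT late) and 1.25 (KO late), under both naive libraries in all 5. The mean log2 difference was -0.46, with an exact two-sided permutation p of 0.0952 over 2 and 5 libraries, which is the smallest this design can give, and 0.381 after Benjamini-Hochberg adjustment over the 6 ratios computed.

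The other 5 ratios overlapped between the groups. Gjb6 over Gja1 was 0.149 and 0.167 in naive astrocytes and 0.156 to 0.292 in tumour-bearing ones (log2 difference 0.54, exact permutation p = 0.1905, adjusted 0.381). Glul over Slc1a2 was 0.272 and 0.311 in the naive libraries and 0.296 to 0.574 in the tumour-bearing ones (log2 difference 0.64, exact permutation p = 0.1905, adjusted 0.381), with WT early inside the naive range. The log2 differences of Aldoc over Slc1a2, Kcnj10 over Aqp4 and Slc6a11 over Slc1a2 were 0.34, 0.35 and 0.09, with adjusted exact permutation p of 0.4285, 0.686 and 1.0. Leaving out KO naive or WT early raised the number of ratios that did not overlap from 1 to 3 or 4.

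In single astrocytes thinned to 1500 UMIs, with 1 cell under that depth left out in each of WT naive, KO naive and WT late, a Slc1a2 UMI was found in 100% of cells in 7 libraries and in 90.9% (exact binomial 95% interval of 58.7% to 99.8%) in KO late. Slc1a3, Glul, Gja1 and Aldoc were found in at least 85.7% of cells in every library. Aqp4 was found in 81.7% and 76.4% of cells in the naive libraries and in 75.0% to 88.9% in the 5 tested tumour-bearing ones. Kcnj10 was found in 51.4% and 52.8% against 42.9% to 60.9%, Gjb6 in 63.3% and 59.4% against 52.2% to 77.8%, and Slc6a11 in 45.9% and 50% against 41.7% to 57.1%. Without thinning the naive shares were 66.4% and 70.1% for Kcnj10, 79.1% and 75.7% for Gjb6 and 63.6% and 66.4% for Slc6a11. For all 9 genes the thinned shares of the groups overlapped. Intervals here and elsewhere cover counting error only.

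KO and WT astrocytes were compared with the stage as a block over the same 7 libraries, so the KO intermediate library, with no WT partner, entered the filter on low counts but not the contrast of the genotypes. Of the 9 members 0 were called by edgeR among 453 genes tested, beside 0.883% of all genes called higher and 0.662% called lower, and DESeq2 called 0. At an unadjusted p under 0.05 the edgeR fit held 27 of the 453 genes, 1 of them a member. This was Slc1a2, with a log2 fold change of -0.49 ± 0.24 and an adjusted p of 0.701. Its unadjusted p was 0.104 with DESeq2, 0.0967 in edgeR with library size scaling, 0.0571 without the stage block, 0.0612 to 0.145 leaving out 1 library and 0.026 with no filter on low counts. Slc1a2 was lower in KO than in WT in all 3 conditions with both libraries, as were Gja1, Aqp4 and 11.7% of all genes tested, at 8988 against 10400 CPM (naive), 7551 against 11780 (early) and 6468 against 8757 CPM (late). Slc6a11, higher in KO in all 3 like 17% of all genes, had the largest estimate in the other direction, 0.40 ± 0.29 (adjusted p = 0.858, edgeR).

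The tumour effect was compared between genotypes as well with an interaction term. Here 0 of the 9 members and 0 of 614 genes were called by edgeR (0% in either direction) or by DESeq2, with 5 genes at an unadjusted p under 0.05 in edgeR, none of them a member, and 2 in DESeq2. The estimates for the members ran from -0.25 ± 0.59 (Slc1a2) to 0.56 ± 0.64 (Gjb6), and each was smaller than its error. On simulated counts this fit called 56% of 200 genes changed 4-fold.

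The same genes were then followed outside astrocytes. Naive brains yielded many astrocytes and their RNA was also found in barcodes with few UMIs, the 1000 ranked last by UMIs of the 3000 in each table. In this low-UMI pool Slc1a2 was at 7268 CPM in WT naive and 6135 CPM in KO naive, 3018 in WT early, 366 in KO early, 284 in WT intermediate, 1097 in KO intermediate, 605 in WT late and 504 CPM in KO late. Aldoc ran from 4196 and 2770 CPM in the naive libraries to 236 CPM in WT intermediate, and Gja1 from 1640 and 967 to 103 CPM. Whether such a pool holds less RNA of a type because fewer cells were there or because each released less cannot be told apart.

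Slc1a2 UMIs in other cells moved the same way. In oligodendrocytes, the myelinating cells, Slc1a2 was at 562 CPM in WT naive and 943 CPM in KO naive. In the tumour-bearing libraries it was at 332 CPM (WT early), 22.7 (KO early), 419 (WT intermediate), 88.0 (KO intermediate), 101 (WT late) and 0 CPM (KO late), so all 6 were lower. Across 2678 genes in edgeR it fell by 2.49 ± 0.57 on the log2 scale (adjusted p = 0.0301), which DESeq2 did not call (adjusted p = 0.184). The edgeR call was lost with no genotype term (adjusted p = 0.0672) and without KO early (0.0733), KO intermediate (0.0550) or KO late (0.0743). Without KO naive the log2 fold change was -0.999 (edgeR adjusted p = 0.913).

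In endothelial cells Slc1a2 was at 218 CPM (WT naive) and 417 CPM (KO naive) and at 47.2 (WT early), 0 (KO early), 38.1 (KO intermediate), 0 (WT late) and 0 CPM (KO late). It fell by 3.48 ± 0.58 (log2, adjusted p = 0.000419, edgeR), and the call was lost without KO naive (log2 fold change -2.62, adjusted p = 0.821). In microglia-like cells, the resident macrophages of the brain, it was at 396 and 438 CPM in the naive libraries and at 0 (WT intermediate, KO early) to 92.5 CPM (WT early) in the 6 tumour-bearing ones. It fell by 2.87 ± 0.44 (log2, adjusted p = 0.000253, edgeR). No tumour-bearing library overlapped the naive ones in these classes.

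Other members fell with it. In oligodendrocytes 6 of the 9 members passed the filter and 3 were called lower, Slc1a2, Slc1a3 (-1.43 ± 0.31, adjusted p = 0.0222) and Gja1 (-2.62 ± 0.53, adjusted p = 0.0148, all edgeR), beside 0.597% of all genes called lower and 1.61% called higher. In endothelial cells 2 passed and 1 was called lower, beside 0.879% of all genes called lower and 5.13% called higher. Of those not passing there, Aldoc averaged 168 CPM in naive and 25.6 CPM in tumour-bearing libraries. Gja1 averaged 102 and 131 CPM, and its tumour-bearing range of 37.9 to 229 CPM overlapped the naive values. In microglia-like cells 4 passed and 4 were called lower, Slc1a2, Aldoc (-2.79 ± 0.39, adjusted p = 0.000106), Slc1a3 (-1.67 ± 0.31, adjusted p = 0.00127) and Glul (-1.04 ± 0.33, adjusted p = 0.0387, all edgeR), beside 6.6% of all genes called lower and 9.43% called higher. The calls of Slc1a3 and Gja1 in oligodendrocytes were lost without KO naive (log2 fold changes -0.84 and -1.73, adjusted p = 0.811 and 0.396, edgeR) or KO late (0.0587 and 0.0518), and that of Slc1a3 in microglia-like cells without WT naive (0.108). Aldoc in oligodendrocytes (-1.70 ± 0.45, adjusted p = 0.0625, edgeR) was not called, but was by DESeq2 (adjusted p = 0.0109), with no filter on low counts (4.107e-06) and without WT intermediate, WT early or WT naive. Its log2 fold change ran from -3.25 without WT naive (adjusted p = 0.000492) to -0.47 without KO naive (0.998, both edgeR). Members that passed had enough UMIs in naive cells, so these counts are read as descriptions. Slc4a4, a bicarbonate transporter of astrocytes outside the list, fell beside them in oligodendrocytes (log2 fold change -3.16 ± 0.61, edgeR adjusted p = 0.0118) and in microglia-like cells (-3.64 ± 0.81, adjusted p = 0.00524).

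**Figure D3:**
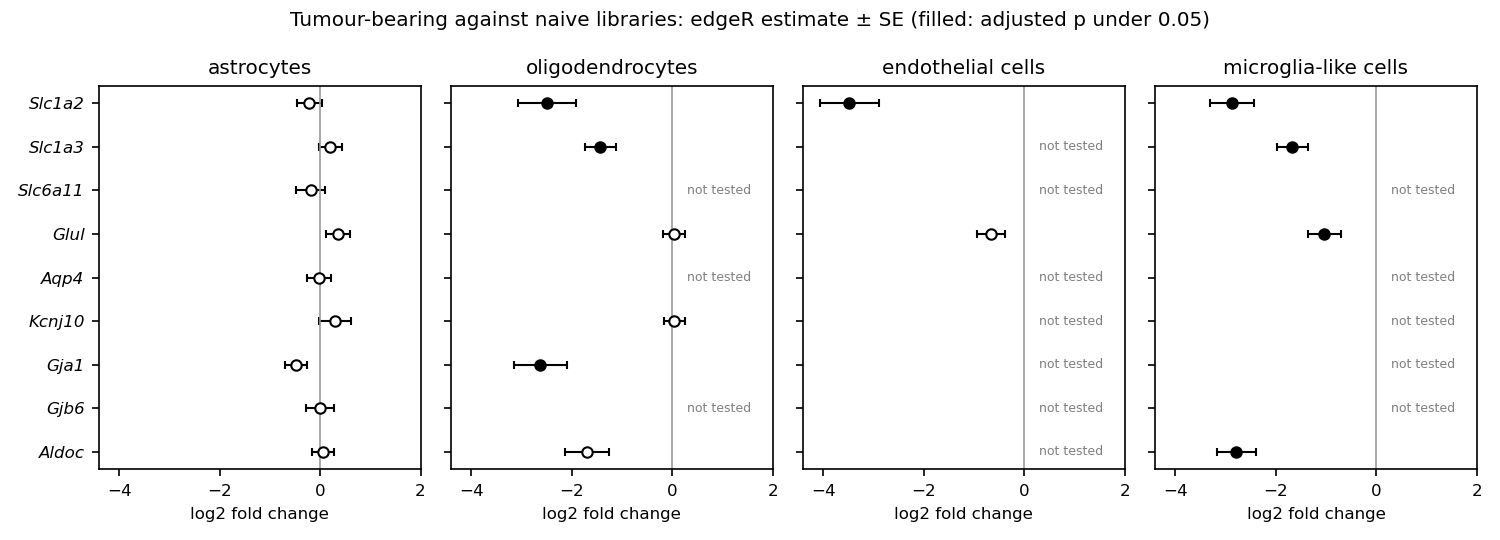
Log2 fold change between tumour-bearing and naive libraries (x axis, edgeR estimate with its standard error) of the 9 genes in 4 cell classes, filled where the adjusted p was under 0.05. In astrocytes all points lie between -0.48 and 0.36, while Slc1a2 lies at -2.49 to -3.48 in the other 3 classes and Glul and Kcnj10 lie at 0.03 and 0.05 in oligodendrocytes.

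To set stray astrocyte RNA apart, the level each member would have if all of it came from astrocytes was predicted in each library. Below, stray RNA means that of astrocytes. Stray RNA of other classes, such as oligodendrocytes for Glul and Kcnj10, was not predicted, so UMIs above the prediction need not be a class's own. The prediction is the member's astrocyte level times the ratio, class over astrocytes, of the summed UMIs of 7 astrocyte genes outside the list, among them Plpp3, Ntsr2, Cldn10, Mlc1, Acsbg1 and Slc4a4. In oligodendrocytes these 7 genes reached 6.16% and 7.38% of their astrocyte level in the naive libraries and 0.276% to 2.73% in the tumour-bearing ones. In microglia-like cells they reached 3.598% and 4.28%, against 0.165% to 0.688%. A member was counted as above stray RNA where its UMIs were at least 3 times the predicted number over all libraries and its lower Poisson bound exceeded the prediction in at least as many libraries as not. This held for 12 of 117 combinations of a gene and a class. Glul made up 6 of them, Kcnj10 3, and Aqp4, Aldoc and Slc1a2 1 each, while Slc1a3, Slc6a11, Gja1 and Gjb6 passed this rule in 0 classes. Of the 12, 7 held under all 10 other choices of clustering, cell filter, reference genes or threshold tried (1 of them with Slc1a2 itself as the reference), Aqp4 in ciliated ependymal-like cells under 9, Glul in neuroblast-like and Aldoc in macrophage-like cells under 8 each, Glul in choroid plexus epithelial-like cells under 7 and Slc1a2 in neuroblast-like cells under 4. Slc1a3 passed in neuroblast-like cells without WT naive, on 8 UMIs.

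**Figure D4:**
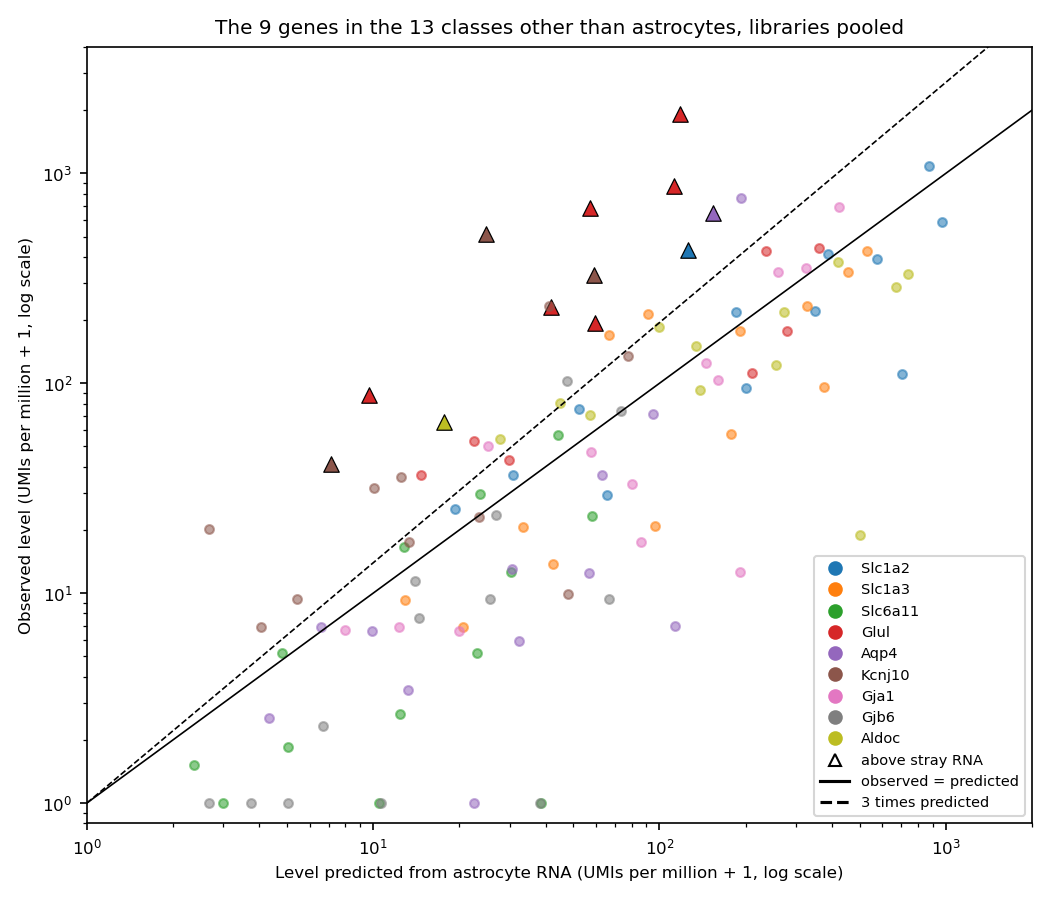
Observed level (y axis) against the level predicted from astrocyte RNA (x axis, both CPM + 1 on log scales) for the 9 genes in 13 classes other than astrocytes, libraries pooled. Triangles are the 12 combinations above stray RNA, led by Glul and Kcnj10 in oligodendrocytes at 16.4 and 21.6 times the prediction, and most other points lie near or under the solid line of equality.

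Slc1a2 in oligodendrocytes, endothelial cells and microglia-like cells summed to 1.07, 0.64 and 1.18 times the prediction, and Aldoc to 0.80, 0.48 and 1.13 times. In oligodendrocytes and microglia-like cells these genes were thus lower in tumour-bearing libraries beside lower levels of the 7 reference genes. In endothelial cells the reference genes reached 2.98% (WT naive) and 5.28% (KO naive) of their astrocyte level. The tumour-bearing libraries held 1.73% (KO late) to 5.24% (WT late), so the groups overlapped. Slc1a2 and Aldoc were lower there in all 5 tumour-bearing libraries, and the reason was not tested. The prediction is high where a class expresses a reference gene itself, as ependymal cells do Mlc1, and a ratio under the threshold of 3 there says little. In naive mural cells and fibroblasts the 7 genes stood at 19.9% (WT) and 12.2% (KO) of their astrocyte level. There Slc1a2 was 0.28, Slc1a3 0.27, Aldoc 0.08 and Aqp4 0.07 times the prediction, and Kcnj10 and Slc6a11 gave 0 UMIs. Glul was 1.68, Gja1 1.26 and Gjb6 5.31 times the prediction in the same cells.

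Glul in oligodendrocytes was far above the prediction. It was at 1945 CPM in WT naive and 1736 CPM in KO naive, where 174 and 207 CPM were predicted. It was at 2071 (WT early), 2178 (KO early), 1895 (WT intermediate), 1877 (KO intermediate), 2117 (WT late) and 1250 CPM (KO late) in the tumour-bearing libraries, where at most 95.4 CPM were predicted in those with enough astrocytes. KO late was low and the other 5 lay within or above the naive range. The log2 fold change was 0.03 ± 0.21 (adjusted p = 0.984, edgeR).

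Kcnj10, which oligodendrocytes also use to clear potassium, behaved alike in them. Its level was 565 CPM in WT naive and 437 CPM in KO naive, with 522 (WT early), 386 (KO early), 573 (WT intermediate), 626 (KO intermediate), 580 (WT late) and 435 CPM (KO late). The pooled prediction was 23.8 CPM. The groups overlapped and the log2 fold change was 0.05 ± 0.22 (adjusted p = 0.984, edgeR). In the same cells and libraries Slc1a2 and Gja1 fell.

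In endothelial cells Glul was at 798 CPM (WT naive) and 1210 CPM (KO naive), beside predictions of 84.1 and 148 CPM. The tumour-bearing libraries held 499 (WT early), 550 (KO early), 762 (KO intermediate), 856 (WT late) and 618 CPM (KO late), and WT late lay between the naive values. The pooled UMIs were 7.82 times the prediction, and the log2 fold change of -0.66 ± 0.28 was not called (adjusted p = 0.237, edgeR).

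In microglia-like cells Glul was at 856 and 1030 CPM in WT naive and KO naive, with 102 and 120 CPM predicted. It was at 420 (WT early), 338 (KO early), 403 (WT intermediate), 706 (KO intermediate), 472 (WT late) and 295 CPM (KO late), with 5.40 to 24.6 CPM predicted. All 6 tumour-bearing libraries were lower than both naive ones. It fell by 1.04 ± 0.33 (log2, adjusted p = 0.0387, edgeR), and the call was lost with no filter on low counts (adjusted p = 0.14) and without WT intermediate (0.0520), WT late (0.0545), KO early (0.0601), WT naive (0.335) or KO naive (0.338), with log2 fold changes of -0.96 to -1.14 in these fits. The microglia markers of these cells were also lower, at a sum of 6964 to 10880 CPM in tumour-bearing against 17920 and 19290 CPM in naive libraries. The part of this shift in the level of Glul was not tested. In macrophage-like cells, of which the naive libraries held 1, Glul was at 52.9 to 306 CPM in the 6 tumour-bearing libraries and 10.1 times the prediction.

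Slc1a3 in microglia-like cells stood between these patterns. It was at 343 CPM in WT naive and 363 CPM in KO naive, where 164 and 195 CPM were predicted. In the tumour-bearing libraries it was at 103 (WT early), 141 (KO early), 57.6 (WT intermediate), 87.5 (KO intermediate), 78.7 (WT late) and 162 CPM (KO late), with 8.54 to 36.3 CPM predicted. It was 2.37 times the prediction over all libraries, short of the threshold of 3, and 5.22 times it in the tumour-bearing libraries alone, a split added after the values were seen.

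**Figure D5:**
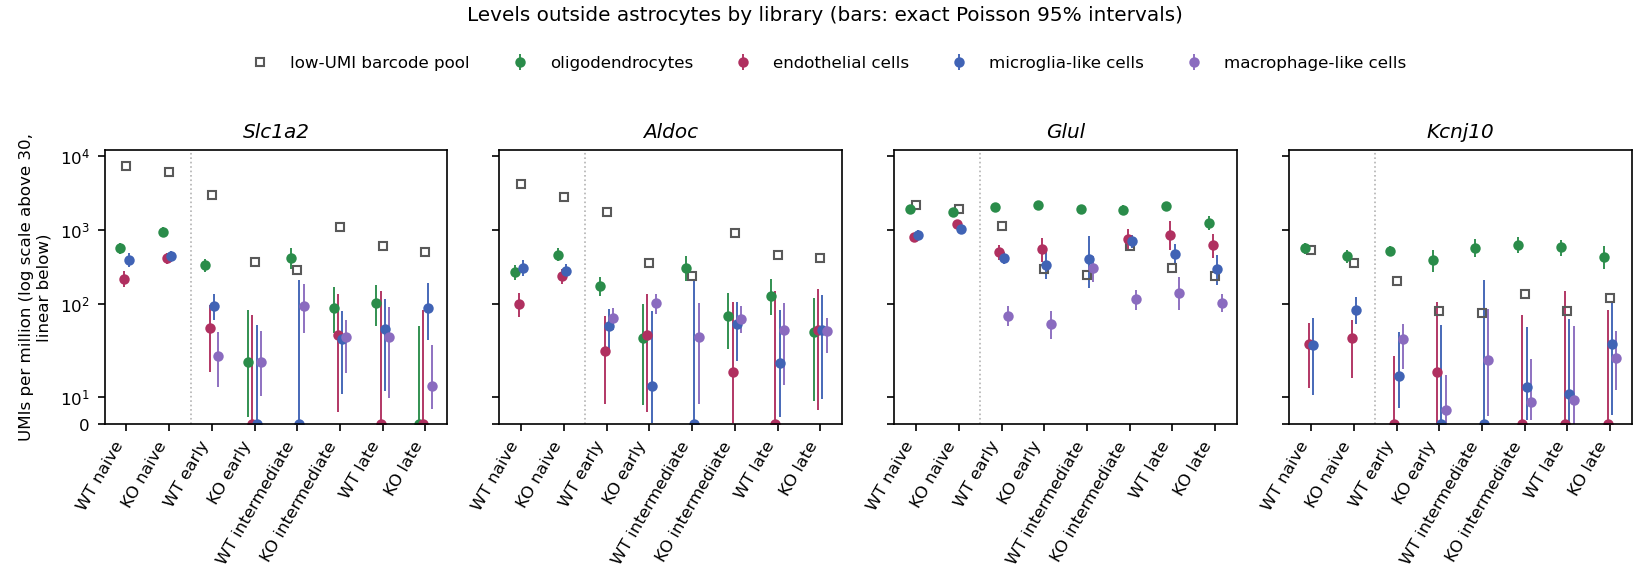
Levels of Slc1a2, Aldoc, Glul and Kcnj10 (y axis, CPM, log scale above 30 and linear below) by library (x axis) in 4 classes, with exact Poisson 95% intervals, and in the low-UMI barcode pool (squares, no interval). Slc1a2 and Aldoc are lower in every tumour-bearing library than in the naive ones in the pool and in microglia-like cells, whereas Glul and Kcnj10 in oligodendrocytes lie within or above the naive range in most tumour-bearing libraries, with Glul in KO late low at 1250.

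Ciliated ependymal-like cells, which line the ventricles, held Aqp4 and Kcnj10 above stray RNA. Aqp4 was at 609 CPM in WT naive, 775 CPM in KO naive and 520 CPM in WT early, the 3 libraries with at least 5 such cells, and at 4.23 times the prediction. Kcnj10 was at 367, 249 and 312 CPM and at 5.64 times the prediction. Gja1, at 693, 746 and 520 CPM, was 1.63 times the prediction.

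Tumour cells held little of any member. Slc1a2 was at 12.4 to 36.8 CPM and Aqp4 at 0.418 to 4.26 CPM in the 6 tumour-bearing libraries. Kcnj10 was the exception by the rule, at 54.9 (WT early), 28.0 (KO early), 43.6 (WT intermediate), 59.5 (KO intermediate), 24.0 (WT late) and 41.3 CPM (KO late), 6.58 times the prediction. In macrophage-like cells and oligodendrocyte precursors Kcnj10 was 11.5 and 5.81 times the prediction but passed its bound in 2 of 5 libraries each. In tumour cells Gja1, at 33.4 to 81.5 CPM, was 2.03 times the prediction, and Aldoc, at 43.9 to 95.1 CPM, 1.23 times. Aldoc was above stray RNA in macrophage-like cells, at 35.3 to 101 CPM in the tumour-bearing libraries and 3.87 times the prediction.

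In mural cells and fibroblasts Gjb6 was at 421 CPM in WT naive and 570 CPM in KO naive, on 8 and 24 UMIs in 7 and 9 cells. In the tumour-bearing libraries there were 2 UMIs in WT early and 0 in the other libraries, and a count of 0 allows a level of up to 39.8 to 107 CPM (3 counts) in those with at least 5 such cells. Gjb6 was 5.31 times the prediction in the naive libraries alone and 2.18 times over all. Gja1 in these cells ran from 114 CPM (WT early) to 1068 CPM (KO naive) over libraries with at least 5 cells, 1.31 times the prediction. In the tumour-bearing ones of these libraries Gja1 was at 114 to 384 CPM. Aldoc there was at 0 to 13.25 CPM, where 254.1 to 521.5 CPM were predicted, so the prediction was too high for Aldoc. Whether the Gja1 UMIs were the cells' own was not tested.

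In neuron-like cells of the naive libraries Slc1a2 had 22 UMIs in 12 cells, spread over 9 of them, and was 5.04 times the prediction, beside 1.24 times over all libraries. Without WT late, whose reference genes stood at 27.6% of their astrocyte level against 0.576% to 1.59% in the other 4 libraries, it was 4.93 times the prediction and above it in 4 of 4 libraries, which would make it 1 more combination above stray RNA (leaving out libraries here was chosen after seeing the data). In the late libraries single cells decided the values. The WT late library gave 2127 CPM of Slc1a2 and 2331 CPM of Aqp4 in 7 cells, but 505 of the 529 member UMIs lay in 1 cell of 23706 UMIs, which held 1 UMI of the 7 neuronal markers. In KO late Slc1a2 was at 1438 CPM, and 19 of its 24 UMIs lay in 1 cell with 86 neuronal marker UMIs and 1 UMI of the other 8 members. Slc1a2 was above stray RNA in neuroblast-like cells, at 481, 508 and 206 CPM in WT naive, KO naive and KO late, on 28 UMIs in all, but not without KO naive (2.603 times the prediction).

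By likeness of pattern over the 14 classes (Pearson r of log2(CPM + 1) with the mean of the 9 members, among 1742 genes of at least 100 CPM in astrocytes and outside the lists), the nearest genes were Mfap3l (r = 0.916), Ttyh1 (0.915), Itih3 (0.909), Crym (0.907) and Slc25a18 (0.896), a mitochondrial glutamate carrier. The classes share libraries, so these values describe the pattern and carry no p. Among the members, r with the same mean ran from 0.755 (Glul) and 0.799 (Kcnj10) to 0.941 (Slc1a2).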

How the data were processed

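The authors made 8 libraries by Drop-seq and deposited 1 table of UMI counts for each, with genes in rows and 3000 barcodes in columns, aligned by STAR (version not given in the sources used here) to GRCm38/mm10 after bcl2fastq 2.0, as the submitters' processing notes list. Counts were used as deposited. Library totals were 2885345 to 9950713 UMIs, and the precision of each level depends on the sum of its class and library.

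The 1000 largest barcodes of each library with at least 1000 genes were kept (5698 cells). Cells were clustered without the 9 members (50 principal components, t-SNE at perplexity 50 with Rtsne 0.17, density clustering in scikit-learn 1.9.0) into 20 clusters and named from marker lists, with 153 cells unassigned. Doublets stayed in, and removing 239 cells with the highest doublet scores, of which the caller had marked 78, was an alternative. No deposited annotation of cells was used.

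UMIs were summed per class and library, with at least 5 cells a sum, and tested with edgeR 4.0.16 (quasi-likelihood, TMM scaling, Benjamini-Hochberg adjustment, R 4.3.3), with genotype as a covariate for tumour effects and stage as a block for genotype. DESeq2 1.42.0 was an alternative. The scripts were tested on simulated counts. The named genes are the 9 members, the listed pathway and marker genes that a comparison called or that were most abundant, and the 5 genes most like the members. Members, lists and rules were chosen with earlier results of these data known. Labels gave each library its group, with 1 library per genotype and condition. The values of 1 listed gene are not reported here.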

Additional observations from a re-analysis of the deposited data

Results flagged for a closer look

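Among 38 groups of tumour-bearing libraries tested for a library far from the others, 4 held one, and chance gives about 1 in 20. Glul in oligodendrocytes of the KO late library was 1250 CPM, under the next lowest tumour-bearing library at 1877 CPM and the highest at 2178 CPM. The astrocyte sum of that library also held the most oligodendrocyte RNA, 2280 CPM of the fixed markers. Kcnj10 in endothelial cells was 18.96 CPM in KO early and 0 CPM in the other 4 tumour-bearing libraries. Gjb6 in microglia-like cells was 6.728 CPM in KO intermediate, and Slc6a11 in the same class was 14.09 CPM in KO early, with 0 CPM in the other 5 tumour-bearing libraries for each. Each of these 3 values rests on 1 UMI beside libraries with 0 UMIs. The rate of 1 in 20 does not hold for such counts, so 4 of 38 cannot be read as an excess.

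Gjb6 in astrocytes moved in opposite directions in the genotypes. It was 724 CPM in WT naive against 551 CPM (WT early) and 716 CPM (WT late), and 639 CPM in KO naive against 796 (KO early), 1000 (KO intermediate) and 705 CPM (KO late). The interaction term was 0.5606 on the log2 scale with a standard error of 0.64 and an adjusted p of 0.9998 (edgeR), so the difference did not exceed its error.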

How the results depend on the processing

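All 9 members stayed highest in astrocytes, 0 members were called in astrocytes in the 3 comparisons and 0 shares separated the groups, under every alternative run. The number of gene and class combinations above stray RNA was 8 to 15 around 12, and 11 to 16 leaving out 1 library (11 without KO naive, 16 without WT late), an alternative added after seeing the data. Glul in choroid plexus epithelial-like cells was lost without WT naive (2.97 times the prediction, threshold 3) and Slc1a2 in neuroblast-like cells without KO naive, while Kcnj10 in OPCs (6.03 to 6.60) and macrophage-like cells (11.8 to 15.2) was gained without any 1 of 3 libraries each, as was Kcnj10 in microglia-like cells (3.03 to 3.92). Slc1a3 in neuroblast-like cells (3.155) was gained without WT naive, Glul in lymphocytes (3.063) without KO late and Slc1a2 in neuron-like cells without WT late. Genes called in astrocytes between tumour-bearing and naive libraries numbered 7, and 12 with DESeq2, 54 with no filter on low counts, 19 with at least 10 cells a sum, 14 with another t-SNE seed, 30 with at least 500 genes a cell, and 4 (without KO naive) to 21 (without KO late) leaving out 1 library. With no filter on low counts the calls were 179 (82) in endothelial cells and 207 (59) in oligodendrocytes, the values in parentheses being those reported, and members called were 3 (1) and 6 (3). Leaving out 1 library gave 31 to 106 calls and 0 to 1 members in endothelial cells, 3 to 75 calls and 0 to 4 members in oligodendrocytes, and 79 to 617 calls and 2 to 4 members in microglia-like cells, with the fewest calls without KO naive in each class. Leaving out a naive library leaves 1 there, assumed to vary like the other group. Between KO and WT astrocytes, calls were 7, and 0 with DESeq2, 2 with library size scaling, 0 with no stage block and 5 to 9 leaving out 1 library. The interaction had 0 to 1 calls leaving out 1 library (1 without WT early). Ratios that did not overlap were 1, and 2 with doublets removed, 0 with unassigned cells left out and 1 to 4 leaving out 1 library. Scaling by library size gave a median log2 fold change of all genes of 0.105 in astrocytes (0.018 in the reported fit), -0.12 in microglia-like cells (0.007) and 0.169 between genotypes (-0.008). With no filter on low counts the estimates of Slc1a3, Glul, Kcnj10 and Aldoc in astrocytes turned negative, at -0.23, -0.07, -0.13 and -0.37, where the median of all genes was -0.756, below each of them. The causes were not tested. Depth limits the astrocyte sums, which hold 18996 to 70780 UMIs in the 5 tested tumour-bearing libraries beside 295581 and 334768 in the naive ones.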

Other observations

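Genes other than the members were called in astrocytes, and they are named after their values were seen. Between tumour-bearing and naive libraries edgeR called 3 of 614 genes higher, Ifitm3 (log2 fold change 5.15, adjusted p = 0.0142) and Irgm1 (2.66, adjusted p = 0.0402), which interferons induce, and H2-D1 (2.73, adjusted p = 0.00646), an MHC class I heavy chain. The 4 called lower were Agt, Ttr (-4.73, adjusted p = 0.000109), the choroid plexus gene whose RNA was high in KO naive astrocytes, Nnat (-1.63, adjusted p = 0.0142) and mt-Co1 (-1.60, adjusted p = 0.0402). Between KO and WT, the MHC class I genes H2-D1 (1.59), H2-K1 (1.52) and B2m (1.64) and the choroid plexus gene Ttr (2.42) were called higher in KO by edgeR on the log2 scale, Gm42418 (-1.20), mt-Rnr1 (-1.47) and Id4 (-0.96) were called lower, and DESeq2 called 0 genes.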
